A study of Mus musculus with 6 samples.

Results

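The genes described here build, load and gate the primary cilium, the single non-motile antenna of most cells, and were followed in tail keratinocytes of mice labelled as epidermal Gpr161 knockout or control. They were taken by symbol: intraflagellar transport (IFT) trains and their motors, the BBSome, the transition zone and a few ciliary membrane genes. All 49 listed symbols had a row among the 19618 genes of the table. Libraries came from mice aged 4 months, 3 per group. The 3 knockout samples are labelled K14cre+ and homozygous for a floxed Gpr161 allele. Of the 3 controls, labelled without K14cre, 1 was homozygous and 2 were heterozygous for that allele, so every mouse carried at least 1 floxed copy. The keratin 14 promoter that drives Cre is active in basal keratinocytes of the epidermis and its appendages. The table names libraries by a tag and a group only: DE679, DE685 and DE688 are knockout and DE680, DE684 and DE689 control, and values of single libraries follow in that order. Which control was homozygous could not be told from the table. The labels do not say whether each library is 1 mouse, so p-values measure the spread between these libraries.

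A primary cilium grows from a centriole that docks at the cell surface. Kinesin-II motors carry IFT trains, led by the IFT-B complex, from base to tip, and cytoplasmic dynein 2 returns them with the IFT-A complex. IFT-A also works with the adaptor Tulp3 to bring G-protein-coupled receptors into the cilium, Gpr161 among them, and the BBSome takes receptors out. The transition zone at the base acts as a gate for membrane proteins. In vertebrates, Hedgehog signalling runs through this organelle: Gpr161 sits in the ciliary membrane and restrains the pathway, and it leaves the cilium when the pathway is active. In skin, cilia are found on cells of the epidermis and hair follicle, where Hedgehog signalling drives follicle growth.

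Total estimated counts ranged from 17157864 (DE685) to 25344399 (DE689) per library. Gpr161 counted over the whole gene does not check the labels: it had 25.9 to 33.6 counts scaled to library size with TMM factors (CPM) in the knockout and 30.2 to 32.2 in the control. Gli1, a direct Hedgehog target, had 66.7 to 74.5 CPM in the knockout and 8.25 to 9.96 in the control. Directions below follow the group in each library's name. Keratinocyte markers dominated all libraries. Genes of motile cilia were near 0, with 1.31 to 2.33 CPM for the 6 of 10 listed genes in the table together, and Foxj1, their master regulator, at most 0.231 CPM. DE684 and DE685 held many Y-linked counts and the other 4 libraries held Xist.

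Most cilium genes were somewhat higher in the knockout, and only Tulp3 passed the test. The log2 fold change was above 0 for 44 of the 49 genes, against 49.3% of the 15422 genes tested. Its median was 0.24, an 18.2% higher level, against a median of −0.0036 over all genes tested. With an edgeR quasi-likelihood test adjusted over all genes, 1 of 49 was called higher (Tulp3) and 0 lower. Over all genes tested 1.6% were called, 1.24% higher and 0.357% lower. The 3 knockout libraries all lay above the 3 controls for 22 of the 49 genes, against 12.8% of all genes tested, and all below for Ofd1 alone, also against 12.8%; in either direction 25.6% of all genes did not overlap. At an unadjusted edgeR p under 0.05, 19 genes were higher and 0 lower, against 9.9% and 9.1% of all genes. By subgroup these 19 were 5 of 11 IFT-B, 5 of 6 IFT-A, 0 of 4 motor, 2 of 8 BBSome and chaperonin, 4 of 5 ciliary membrane and 3 of 15 transition zone genes. The DESeq2 Wald test called 7 of the 49, all higher; it called 5.89% of the 14816 genes with an adjusted p, 3.81% higher. All 49 genes passed the filter on low counts, and the lowest single count was 16. In these bulk samples, more cells of a type and more RNA per cell cannot be told apart.

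**Figure D1:**
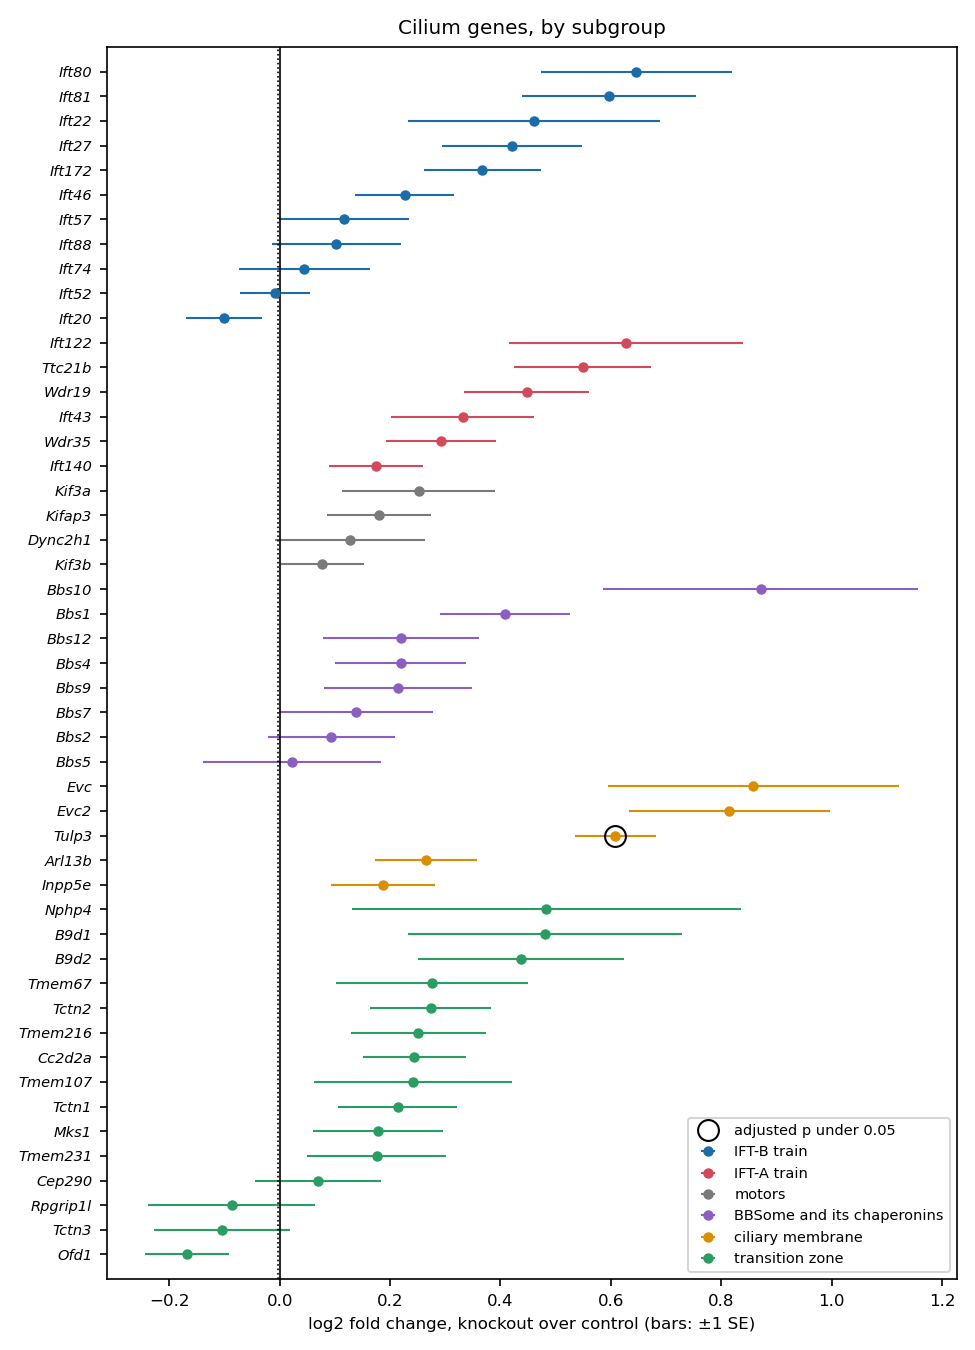
Log2 fold change of the 49 cilium genes, knockout over control, with bars of 1 SE from the edgeR fit on 3 libraries a group; colours mark the subgroups, the ring marks an adjusted p under 0.05 and the dotted line is the median of all genes tested. The points lie above 0 for 44 genes, from −0.17 (Ofd1) to 0.87 (Bbs10), and the ring surrounds Tulp3.

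Tested genes of a similar level leaned less to one side. The members' mean levels ran from 1.24 to 60.2 CPM, and of the 9436 tested genes within that range 53.7% were above 0, with a median of 0.021. In the plot of cumulative shares the curve of the 49 genes crosses 0 at 10.2% and that of all genes at 50.7%.

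**Figure D2:**
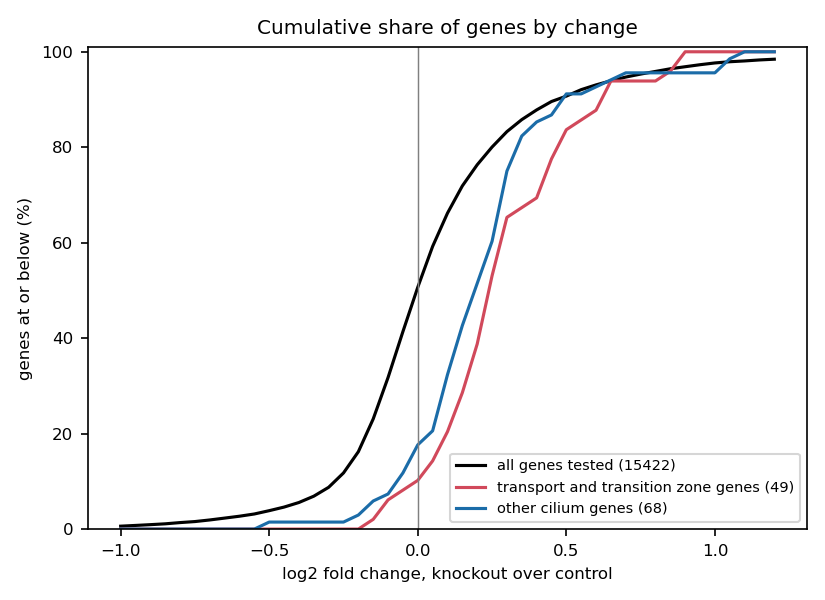
Cumulative share of genes, in percent, at or below each log2 fold change of knockout over control, for all 15422 genes tested, the 49 transport and transition zone genes and 68 other cilium genes. The 49 genes and the other cilium genes both lie to the right of all genes at a change of 0, with 10.2% and 17.6% at or below it against 50.7%.

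Tulp3, the tubby-family adaptor that loads Gpr161 and other receptors onto IFT-A, rose in the knockout. Tulp3 had 37.1, 34.4 and 36.6 CPM in the knockouts and 24.5, 22.5 and 23.9 CPM in the controls. The knockout libraries did not overlap the controls, and the means were 36.02 ± 1.45 against 23.6 ± 1.04 CPM. The fold was 1.52 (log2 fold change 0.61 with SE 0.07, edgeR adjusted p 0.0116). Tulp3 lies on chromosome 6 from 128321161 to 128355851, minus strand (GRCm38). It ranked 55th of 15422 genes by p. The call was lost without DE679 (edgeR adjusted p 0.0617) and without DE688 (edgeR adjusted p 0.0631), where the log2 fold changes were 0.59 and 0.60.

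The 6 IFT-A genes, partners of Tulp3 in receptor entry and part of the return train, had positive changes in 6 of 6 with a median of 0.39, and 0 passed the test. In 5 of the 6 the knockout lay wholly above the control, against 12.8% of all genes tested. Ttc21b, a peripheral IFT-A subunit mutated in skeletal and kidney ciliopathies, came nearest to the threshold. Its levels were 14.04, 11.6 and 12.4 CPM in the knockouts and 9.45, 8.47 and 8.09 CPM in the controls. The groups did not overlap, with means of 12.7 ± 1.24 against 8.67 ± 0.701 CPM (log2 fold change 0.55 with SE 0.12, edgeR adjusted p 0.0841); the gene lies on chromosome 2 from 66184327 to 66256617, minus strand. Wdr19, a core IFT-A subunit, had 14.3, 13.9 and 15.5 CPM in the knockouts and 11.1, 11.5 and 9.56 CPM in the controls. Its lowest knockout library, DE685, exceeded its highest control, DE684 (log2 fold change 0.45 with SE 0.11, edgeR adjusted p 0.104). Ift122, another core subunit, had 13.4, 11.7 and 14.2 CPM in the knockouts and 7.85, 11.3 and 6.27 CPM in the controls. The control DE684 came close to the knockout DE685, and the controls spread widely (13.1 ± 1.28 against 8.48 ± 2.58 CPM; log2 fold change 0.63 with SE 0.21, edgeR adjusted p 0.179).

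Wdr35, a peripheral subunit, had 26.7, 24.9 and 28.7 CPM in the knockouts and 22.98, 23.2 and 19.4 CPM in the controls, again with no overlap (log2 fold change 0.29 with SE 0.10, edgeR adjusted p 0.182). Ift43, a small peripheral subunit, had 15.1, 15.9 and 16.3 CPM in the knockouts and 13.7, 13.6 and 10.4 CPM in the controls. DE689 was clearly the lowest of the controls there (log2 fold change 0.33 with SE 0.13, edgeR adjusted p 0.227), and without it the change was 0.21. Ift140, a core subunit needed for the train to bind cargo membrane proteins, was the exception within the complex. It had 39.01, 35.2 and 36.8 CPM in the knockouts and 35.2, 33.3 and 29.9 CPM in the controls. The knockout DE685 was marginally below the control DE680, so the groups overlapped (log2 fold change 0.17 with SE 0.08, edgeR adjusted p 0.309), and without DE689 the change was 0.11.

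**Figure D3:**
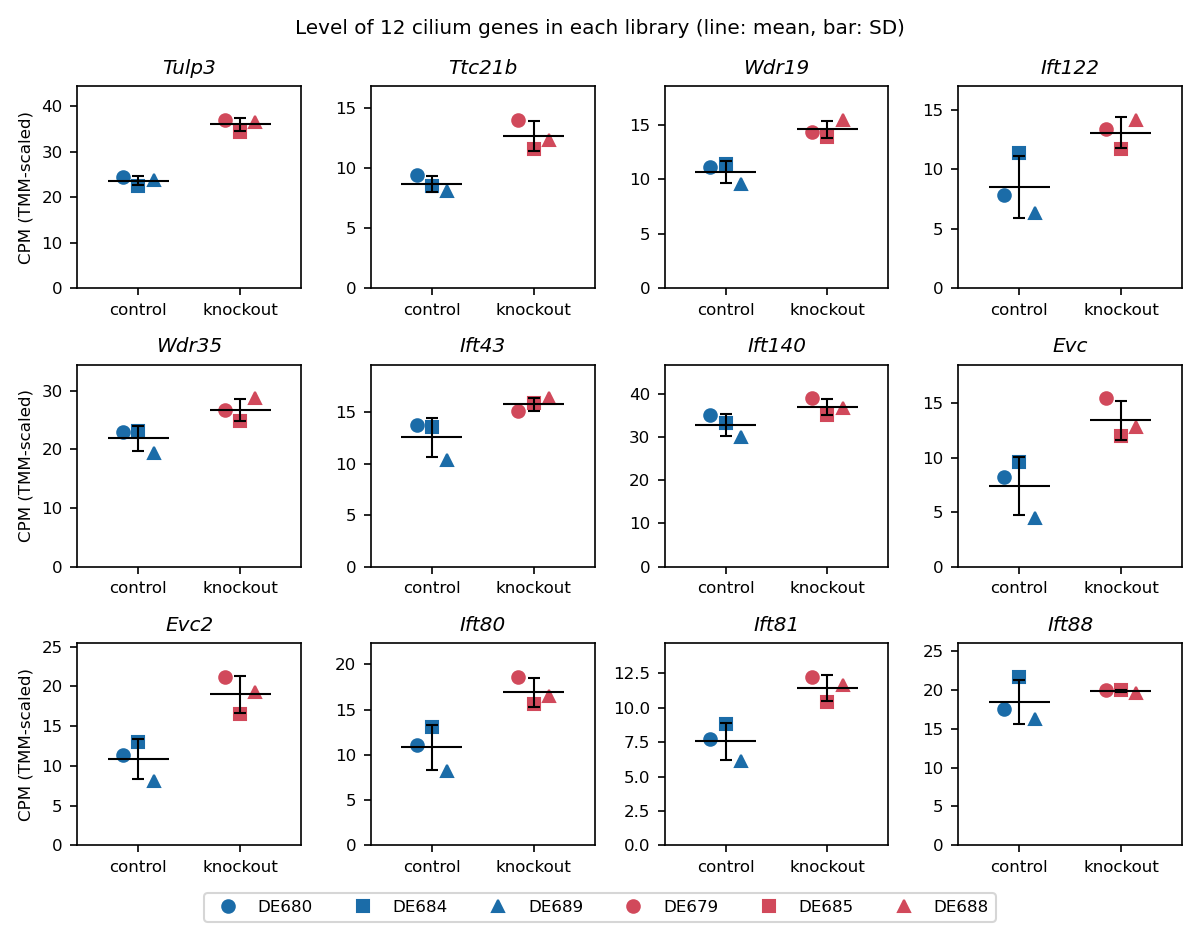
Level in TMM-scaled CPM of 12 cilium genes in each of 6 libraries, controls in blue and knockouts in red, with the mean as a line and the SD as a bar (n = 3). Tulp3 separates cleanly, with controls from 22.5 to 24.5 and knockouts from 34.4 to 37.1 CPM; Ift140 and Ift88 overlap.

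Among the 11 IFT-B genes, which form the anterograde train and bind tubulin and kinesin, 9 were above 0 with a median of 0.23. The knockout lay wholly above the control in 5, against 12.8% of all genes tested, and 0 passed the test. Ift80, a peripheral subunit linked to skeletal ciliopathy, had 18.6, 15.6 and 16.5 CPM in the knockouts and 11.05, 13.1 and 8.25 CPM in the controls. The groups were apart and DE684 was the highest control (16.9 ± 1.56 against 10.8 ± 2.44 CPM; log2 fold change 0.65 with SE 0.17, edgeR adjusted p 0.114). Ift81 carries tubulin with its partner Ift74, and it had 12.3, 10.4 and 11.7 CPM in the knockouts and 7.76, 8.82 and 6.15 CPM in the controls. Here too every knockout library exceeded every control (log2 fold change 0.60 with SE 0.16, edgeR adjusted p 0.112). The partner Ift74 overlapped between groups, with 12.8 to 14.5 CPM in the knockout and 12.02 to 15.1 in the control (log2 fold change 0.045, SE 0.12). The difference between the partners was not tested.

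Ift172, a large subunit with a role in turnaround at the tip, had 42.5, 36.9 and 44.03 CPM in the knockouts and 30.7, 35.97 and 29.1 CPM in the controls. The knockout DE685 was only just above the control DE684 (log2 fold change 0.37 with SE 0.11, edgeR adjusted p 0.135). Ift27, a small GTPase that links IFT-B to BBSome exit, had 13.2, 12.3 and 10.5 CPM in the knockouts and 9.49, 9.08 and 8.37 CPM in the controls, with no overlap (log2 fold change 0.42 with SE 0.13, edgeR adjusted p 0.146). Ift46, a core subunit, had 38.5, 38.9 and 36.2 CPM in the knockouts and 30.4, 30.5 and 36.1 CPM in the controls; the knockout DE688 was only marginally above the control DE689 (log2 fold change 0.23 with SE 0.09, edgeR adjusted p 0.230). The remaining IFT-B genes overlapped between groups. Ift22, a GTPase of the train, had 7.74 to 9.84 against 4.36 to 8.07 CPM. Ift88, whose loss removes cilia in mice, had 19.6 to 20.0 CPM in the knockout and 16.3 to 21.7 in the control, a log2 fold change of 0.10 (SE 0.12). Ift57 was at 0.12 (SE 0.12) and Ift52, a core scaffold, at −0.0087 (SE 0.0628). Ift20, which also works at the Golgi, was at −0.10 (SE 0.068). By DESeq2 the calls among IFT-B genes were Ift80, Ift81 and Ift172, with adjusted p of 0.0171, 0.0345 and 0.0493.

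The 4 motor genes had the smallest shifts of the subgroups, with a median of 0.15, 4 of 4 above 0 and 0 past the test. Kifap3, the adaptor subunit of kinesin-II, had 29.98, 28.7 and 28.4 CPM in the knockouts and 26.5, 27.8 and 22.5 CPM in the controls. Its groups did not overlap, by a narrow margin between DE688 and DE684 (log2 fold change 0.18 with SE 0.09, edgeR adjusted p 0.342), and without DE689 the change was 0.096. Kif3a, a motor subunit of kinesin-II, had 14.9, 13.3 and 15.8 CPM in the knockouts and 14.4, 12.1 and 10.5 CPM in the controls. The control DE680 exceeded the knockout DE685 (log2 fold change 0.25 with SE 0.14, edgeR adjusted p 0.365), and without DE689 the change was 0.15. Its partner Kif3b was at 0.077 (SE 0.076), and Dync2h1, the heavy chain of dynein 2, at 0.13 (SE 0.14), both with overlapping groups.

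All 8 genes of the BBSome and its chaperonins were above 0 (median 0.22), 2 did not overlap and 0 passed the test. Bbs1, the subunit that joins the BBSome to its GTPase Arl6, had 9.80, 8.95 and 10.04 CPM in the knockouts and 7.32, 7.33 and 7.06 CPM in the controls. The controls lay close together and below all knockouts (9.59 ± 0.568 against 7.24 ± 0.152 CPM; log2 fold change 0.41 with SE 0.12, edgeR adjusted p 0.132). Bbs10, a chaperonin-like protein needed for BBSome assembly, had 2.33, 2.66 and 2.33 CPM in the knockouts and 1.77, 1.27 and 0.952 CPM in the controls. Its knockouts lay above its controls, at a low level and with a wide error (log2 fold change 0.87 with SE 0.29, edgeR adjusted p 0.168). On the authors' normalized values its log2 fold change was 0.57. The other chaperonin gene, Bbs12, was at 0.22 (SE 0.14). The BBSome subunits Bbs2, Bbs4, Bbs5, Bbs7 and Bbs9 ranged from 0.022 (Bbs5) to 0.22 (Bbs4), and every group pair overlapped.

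The 5 ciliary membrane genes had the highest median of the subgroups, 0.61, with 5 of 5 above 0 and 1, Tulp3, past the test. In 4 the knockout lay wholly above the control, against 12.8% of all genes tested. Evc and Evc2 encode the complex that passes on the Hedgehog signal from Smo near the ciliary base. They are neighbours on chromosome 5 that are read away from each other, Evc from 37336894 down to 37289098 and Evc2 from 37338499 up to 37425055, with 1604 bases between them. Evc had 15.4, 12.01 and 12.8 CPM in the knockouts and 8.25, 9.56 and 4.44 CPM in the controls. All knockouts exceeded all controls, and DE689 was far below the other controls (13.4 ± 1.79 against 7.42 ± 2.66 CPM; log2 fold change 0.86 with SE 0.26, edgeR adjusted p 0.150). Evc2 had 21.2, 16.5 and 19.3 CPM in the knockouts and 11.4, 12.99 and 8.09 CPM in the controls, with no overlap and DE689 again the lowest (19.00 ± 2.35 against 10.8 ± 2.50 CPM; log2 fold change 0.81 with SE 0.18, edgeR adjusted p 0.0825). DESeq2 called both higher, with adjusted p of 0.0237 for Evc and 0.00142 for Evc2, whereas edgeR did not. Arl13b, the GTPase that marks the ciliary membrane, had 29.6, 35.5 and 29.3 CPM in the knockouts and 26.4, 26.5 and 25.6 CPM in the controls. Its controls were close together and below all knockouts (log2 fold change 0.26 with SE 0.09, edgeR adjusted p 0.190). DE685 was the highest knockout, and without it the change was 0.17. Inpp5e, the phosphatase that sets ciliary phosphoinositides and thereby Tulp3 release, overlapped between groups, with 32.2 to 34.7 against 26.5 to 32.9 CPM (log2 fold change 0.19, SE 0.094).

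Of the 15 transition zone genes, 12 were above 0 with a median of 0.24 and 0 passed the test. Wholly above the control lay 5 and wholly below it 1, against 12.8% of all genes tested in each direction. Cc2d2a, an MKS-module protein with a C2 domain, had 32.4, 27.5 and 28.3 CPM in the knockouts and 23.7, 26.7 and 24.1 CPM in the controls, with no overlap (log2 fold change 0.24 with SE 0.09, edgeR adjusted p 0.218). Tctn2, a tectonic of the same module, had 10.1, 10.7 and 11.3 CPM in the knockouts and 9.01, 9.04 and 8.53 CPM in the controls. Its controls were close together and below the knockouts (log2 fold change 0.27 with SE 0.11, edgeR adjusted p 0.234). B9d2, a B9-domain protein, had 5.64, 6.18 and 5.76 CPM in the knockouts and 5.28, 3.73 and 3.97 CPM in the controls; DE680 was the highest control and stayed under every knockout (log2 fold change 0.44 with SE 0.19, edgeR adjusted p 0.259). Tmem216, a membrane protein of the gate, had 10.6, 13.6 and 12.7 CPM in the knockouts and 10.4, 10.2 and 10.4 CPM in the controls, with DE679 near the controls (log2 fold change 0.25 with SE 0.12, edgeR adjusted p 0.308). Tmem231, a membrane protein of the MKS module, had 8.82, 8.61 and 9.06 CPM in the knockouts and 7.94, 8.51 and 7.02 CPM in the controls, apart by a narrow margin (log2 fold change 0.18 with SE 0.13, edgeR adjusted p 0.488); without DE689 the change was 0.10.

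Ofd1 was the single gene of the 49 with all knockouts below all controls. It acts at the distal end of the centriole, is X-linked and is mutated in oral-facial-digital syndrome. Its levels were 25.9, 27.7 and 27.5 CPM in the knockouts and 29.4, 29.5 and 32.2 CPM in the controls, and the fit did not call it (log2 fold change −0.17 with SE 0.08, edgeR adjusted p 0.280). Its log2 fold change stayed between −0.19 and −0.12 in all 15 fits, the one with a sex covariate included. The other 9 transition zone genes overlapped. Tctn1, Mks1, Tmem67, Tmem107, B9d1 and Nphp4 ran from 0.18 (Mks1) to 0.48 (Nphp4), Cep290 was at 0.069, and Rpgrip1l and Tctn3 were at −0.087 and −0.10. Nphp4 and B9d1 were the lowest in counts, so their errors were wide (SE 0.35 and 0.25).

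Averaged over genes, each subgroup separated the genotypes in the same direction. The mean deviation of the 49 genes from their own average level, on the log2 CPM scale, was 0.16, 0.13 and 0.14 in DE679, DE685 and DE688 and −0.097, −0.065 and −0.27 in DE680, DE684 and DE689. Each gene's average was the midpoint of its knockout and control means, so the group means mirror each other around 0 by construction. The 3 knockout libraries were alike and DE689 lay below the other controls. DE689 was the lowest control for 31 of the 49 genes. Without DE689 the median log2 fold change was 0.22 and 43 genes were above 0. Of the 7 genes with a fold above 1.5 in the main fit, all but Tulp3 had smaller log2 fold changes without DE689. Evc went from 0.86 to 0.59, Evc2 from 0.81 to 0.64 and Bbs10 from 0.87 to 0.68. Ift80 went from 0.65 to 0.49, Ift122 from 0.63 to 0.45 and Ift81 from 0.60 to 0.47. Tulp3 went from 0.61 to 0.62. The lowest of the 6 libraries was a control for 45 genes and the highest was a knockout for 42. Shares over all genes were not computed for these counts or for DE689 as the lowest control. Whether DE689 was low for these genes in particular was not tested.

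**Figure D4:**
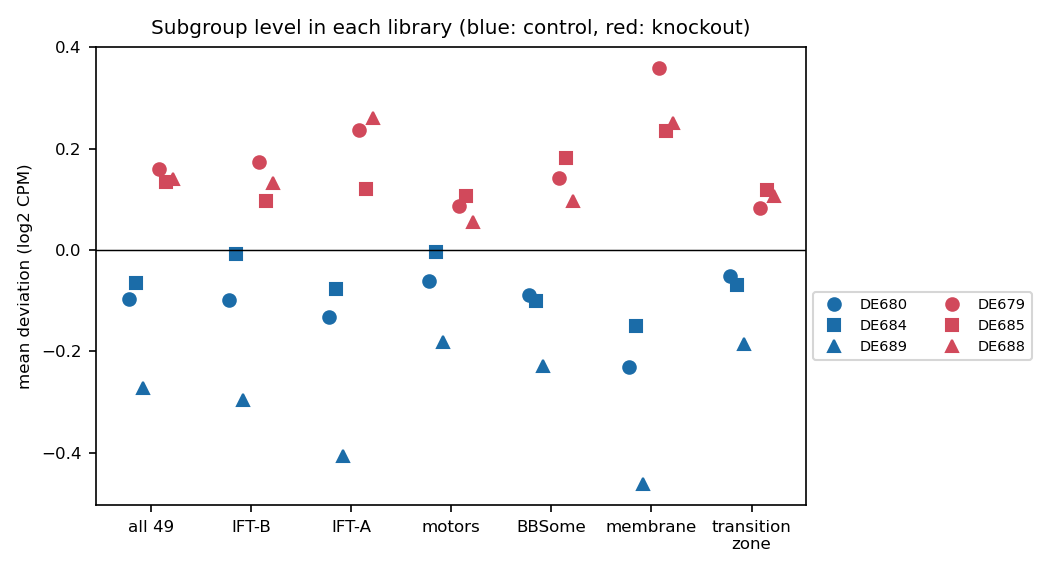
Mean deviation from each gene's average log2 CPM in each library, for all 49 genes and each subgroup; red symbols are knockout and blue symbols control libraries. The average is the midpoint of the knockout and control means, so the group means mirror each other around 0 by construction. Every knockout point lies above 0 and every control point below it, with DE689 lowest in each column. The widest gap is in the membrane subgroup and the narrowest in the motors.

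Marker lists of cell types leaned both ways, and their sums are given beside these genes. The 7 hair follicle stem cell markers summed to 2175 to 2587 CPM in the knockout and 1666 to 1935 in the control, with DE689 lowest. Of the 7, 6 were above 0 (median 0.50), and Nfatc1 and Foxc1 passed the test. In 5 the knockout lay wholly above the control, against 12.8% of all genes. An unadjusted edgeR p under 0.05 was found for 6, all higher, against 9.9% of all genes. Cd34 was below 0 (−0.29), with overlapping groups. Most of that sum was Krt15, with 1689 to 2018 against 1324 to 1600 CPM (edgeR adjusted p 0.104). The 7 fibroblast markers summed to 173 to 186 against 61.7 to 97.9 CPM. Of these Dcn passed the test, and with Thy1 (edgeR adjusted p 0.0560) it made up most of the sum in the knockout. The collagens Col1a1, Col1a2 and Col3a1 had 3.86 to 6.69 CPM in the knockout and 3.01 to 14.1 in the control, and Lum had at most 0.272 CPM. For the 7 melanocyte markers the sums were 81.0 to 120 against 56.0 to 81.0 CPM. They overlapped only just, with 80.983 in the knockout DE685 and 80.985 in the control DE684. For the 7 immune markers the sums overlapped (52.4 to 128 against 27.4 to 107 CPM). Both lists were wholly above 0 in log2 fold change, and 0 were called by edgeR. Mitf, Pmel and Mlana lay wholly above the control, and 0 of the immune markers did, against 12.8% of all genes. At an unadjusted edgeR p under 0.05 there were 3 melanocyte and 0 immune markers, all higher, against 9.9% of all genes. Sums for 6 proliferation genes overlapped (444 to 484 against 379 to 517 CPM). Of 6 sebaceous gland markers, 1 was above 0 and 0 were called by edgeR; Mgst1 and Soat1 lay wholly below the control (unadjusted edgeR p 0.0116 and 0.0310), and the sums overlapped (7256 to 8161 against 7443 to 8636 CPM). Of 5 endothelial markers, 4 were tested and 0 were above 0 (median −0.66); Cdh5 lay wholly below the control, 0 were called by edgeR or had an unadjusted p under 0.05, and the sums were 2.66 to 3.81 against 3.73 to 6.19 CPM. Of the 7 keratinocyte markers, 4 were above 0 and 0 were called by edgeR, and the sums overlapped (38897 to 48002 against 37300 to 54965 CPM). By an unadjusted edgeR p under 0.05, 1 was higher, Trp63 (p 0.00445, edgeR adjusted p 0.104), against 9.9% of all genes. Trp63 and Krt5 lay wholly above the control (log2 fold changes 0.23 and 0.21), against 12.8% of all genes. The others overlapped, with Krt14 at 0.029, Dsg3 at 0.15, Itga6 at −0.11, Krt1 at −0.25 and Krt10 at −0.34. The part of these cell markers in the cilium gene levels was not tested.

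Cilium genes outside the 49 were also mostly above 0; their difference from the 49 was not tested. A second list held 78 symbols for other transport, transition zone, basal body, membrane and regulator genes; 73 were in the table and 68 were tested. Of the 68, 56 were above 0 with a median of 0.19, 22 lay wholly above the control and 1 wholly below (12.8% each over all genes). By edgeR 2 were called higher and 0 lower, against 1.24% and 0.357% of all genes. At an unadjusted edgeR p under 0.05, 16 were higher and 0 lower, against 9.9% and 9.1% of all genes. The called genes were Kif7 and Rab34. Kif7, the tip kinesin that organises Gli proteins, had 14.4, 16.8 and 16.3 CPM in the knockouts and 9.05, 10.2 and 10.04 CPM in the controls, with no overlap (log2 fold change 0.69 with SE 0.11, edgeR adjusted p 0.0302). Rab34, a GTPase that helps the cilium form inside the cell, had 47.5, 49.7 and 49.9 CPM in the knockouts and 38.7, 31.8 and 36.2 CPM in the controls, also apart (log2 fold change 0.46 with SE 0.08, edgeR adjusted p 0.0450). Leaving out any 1 of the 6 libraries ended both calls, with adjusted p of 0.066 to 0.135 for Kif7 and 0.068 to 0.174 for Rab34. The RFX family includes transcription factors of cilium genes. Of its listed genes 5 were tested, with 4 above 0, a median of 0.10 and 0 called. Rfx1 (22.4 to 24.1 against 16.6 to 20.4 CPM) and Rfx5 (28.8 to 31.3 against 22.1 to 24.9 CPM) were both apart (edgeR adjusted p 0.166 and 0.105). Rfx7, the highest in CPM, leaned lower with overlapping groups (90.6 to 102 against 94.7 to 124 CPM, log2 fold change −0.23). Rfx2 overlapped at 0.071. Rfx3, a main ciliogenic member, overlapped (5.14 to 5.94 against 3.21 to 6.89 CPM).

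Promoters were searched for short motifs, whose spellings were picked after others had been tried on these promoters. RefSeq windows (GRCm38.p6) of 250 bases before to 50 after the start were at hand for 45 genes. The letters GTTGCC, an arm of the X-box bound by RFX factors, on either strand, was in 21 of the 45 (46.7%), against 14.1% of 27025 genes with such windows and 14.6% of the 11164 of these that were tested. A longer form, GTNNCC and GNNAC with 3 bases between, was in 14 (31.1%) against 5.26% of all; both strands were searched and the forms can overlap. A core of the Gli-binding site, CCACCCA on either strand, was in 3 (Mks1, Nphp4 and Ttc21b; 6.67%) against 10.6%. Genes with GTTGCC had a median log2 fold change of 0.25 and those without it 0.22. A match is a string of letters and not a bound site. The matches below are examples that lie before the start of genes described above. Other genes described above also held such matches, among them Ift27, Kif3a and Tmem231. So did Ift57 and Bbs7, with log2 fold changes of 0.12 and 0.14, and Tctn3, at −0.10. Matched letters are in capitals, read in the direction of the gene. Wdr19 and Tctn2 hold the longer form and Ttc21b the Gli core. Arl13b, Evc and Ift140 hold the shorter form, in Evc and Ift140 on the other strand.
Wdr19, chr5:65199650-65199687, plus strand: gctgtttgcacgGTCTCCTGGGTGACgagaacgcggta
Tctn2, chr5:124598675-124598712, plus strand: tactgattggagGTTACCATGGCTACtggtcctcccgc
Arl13b, chr16:62847204-62847233, minus strand: acagacgctccaGTTGCCtagttaccagag
Evc, chr5:37337047-37337076, minus strand: ctcaggactcagGGCAACctgaacgctcag
Ift140, chr17:25015965-25015994, plus strand: gcgtgttgtgacGGCAACctcgcgcccttg
Ttc21b, chr2:66256844-66256867, minus strand: ttgctCCACCCAatccctcctcct

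Tulp3, the gene that passed the test, held none of these letter strings in its window, which says nothing of the factors themselves. The 60 bases just before its start are shown for comparison with the matches above.
Tulp3, chr6:128355852-128355911, minus strand: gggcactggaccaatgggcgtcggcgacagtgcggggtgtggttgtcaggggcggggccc

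Levels can be compared between genes only per length, here control CPM per kilobase of exon in the GENCODE M21 gene models. On that scale Ift20 (29.0 ± 1.58, SD, n = 3) and Ift52 (21.6 ± 1.07) stood well above the rest. Ift43 (7.60 ± 1.15), Kif3b (7.16 ± 0.375), Inpp5e (6.83 ± 0.755) and Ofd1 (6.82 ± 0.366) followed and did not differ from each other beyond their spread. The lowest were Rpgrip1l (0.728 ± 0.0613), Bbs10 (0.437 ± 0.136) and Nphp4 (0.171 ± 0.0730). The log2 fold changes of these top genes were −0.10 (Ift20) and −0.0087 (Ift52). Exons of 10 of the 49 genes overlap those of a gene on the opposite strand (Ofd1 with Trappc2, Tmem216 with Cpsf7, Inpp5e with Pmpca, Ift88 with Ift88os and 6 more). Counting by strand is not given in the sources used here, so a share of those counts may come from the overlapping gene.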

How the data were processed

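Per the labels' protocols, epidermis was taken from tail skin with trypsin and dispase, and stranded libraries were prepared from polyadenylated RNA of the strained cells. The submitters' processing notes list bcl2fastq 2.20, cutadapt 1.18, STAR 2.7.0f, Partek and the build mm10, with no roles; the annotation, counting tool and strand setting are not given in the sources used here. The authors deposited estimated counts per gene, many of them not whole, and a normalized signal, which per the values is proportional to the count within a library, with a small offset. Gene coordinates of all 49 genes equal GENCODE M21.

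Estimated counts were rounded, although the design had assumed whole counts. They were filtered with filterByExpr, scaled with TMM factors and fitted with the edgeR 4.0.16 quasi-likelihood test on all 6 libraries, genotype being the single term, and p-values were adjusted over 15422 genes by the Benjamini-Hochberg method, with a threshold of 0.05. With 3 libraries a group, an exact permutation test of a single value cannot go below 0.1. The fit was tested on simulated data. The 3-count floor was 0.117 to 0.173 CPM, for counting error only. Alternatives were DESeq2 1.42.0, limma-voom (limma 3.58.1), limma on log2 of the normalized signal plus 1, other scalings (upper-quartile or RLE), other filters (none, or 1 CPM on average), a sex covariate read from Xist and Y-linked genes, and each library left out in turn.

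The members and lists were chosen with earlier results of these data known. Exon lengths came from GENCODE M21. Values in every library are given for genes with an adjusted p under 0.05, Tulp3 and the 6 IFT-A genes, the 2 genes of lowest p in each subgroup and up to 10 more without overlap; from the second list, those past the threshold. Motif spellings were picked after several others had been tried on the same promoters.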

Additional observations from a re-analysis of the deposited data

How the results depend on the processing

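No paired analysis was possible because the table's columns carry no replicate number. The number of genes past the threshold was 247, against 409 with the sex covariate, 872 with DESeq2 and 69 to 121 with a library left out. For the 49 cilium genes it was 1, against 7 with DESeq2 (Tulp3, Evc, Evc2, Ttc21b, Ift80, Ift81 and Ift172) and 0 to 1 with a library left out, the 0 without DE679 and without DE688. For the other cilium genes it was 2, and 0 in each fit that left out a library (0 to 0). Smaller groups tend to lower these numbers, and the part of the library removed was not tested. The cause of the rises was not tested either. The median log2 fold change of the 49 genes ranged from 0.20 (without DE685) to 0.27 (without DE684) over all alternatives. Of the 49 genes, 42 were above 0 and 4 below (Ift20, Ofd1, Rpgrip1l and Tctn3) in all 15 fits, and Bbs5, Ift52 and Ift74 changed sign. For the 27 genes with values in every library, calls were also compared fit by fit. With a library left out, a call was lost 14 times (Tulp3, Kif7 and Rab34). A call was gained 6 times, all by DESeq2. These labels follow the adjusted p and not the size of the change. Kif7, at 0.69 in the main fit, was at 0.76 without DE679 and 0.64 without DE680, and Evc was at 0.86 in both edgeR and DESeq2. Depth limits Nphp4 most, with 16 counts in its lowest library.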
